A study of Homo sapiens with 1 sample.

Results

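The clustered protocadherin genes were taken as the protein-coding genes of GENCODE release 44 on chromosome 5 whose symbols begin with PCDHA, PCDHB or PCDHG followed by a letter or digit. There were 53 such genes among 20033 protein-coding genes, namely 15 in the alpha cluster, 16 in the beta cluster and 22 in the gamma cluster, all on the plus strand. The rule uses gene symbols and no measured value, although this family was picked for description with earlier results of these data known. Chromatin accessibility had been profiled by ATAC-seq, which uses Tn5 transposase to cut and tag DNA that is not covered by nucleosomes. The cells were 786-O, a long-used human line from a clear cell renal cell carcinoma (ccRCC), which carried an empty vector and served in the study as the control for overexpression of DPF3a, a SWI/SNF chromatin remodelling subunit. The peak list of 1 library was analysed, without a replicate, and the library with DPF3a overexpression was not analysed here. Therefore no test and no p-value is given, and every value describes this library of this line alone.

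Clustered protocadherins are cell surface adhesion proteins best known from neurons, where each cell uses a small and largely random set of them to tell its own branches from those of other cells. Every member has a large variable exon with a promoter of its own. In the alpha and gamma clusters the variable exon is spliced to constant exons shared by the whole cluster, whereas a beta gene encodes its protein in a variable exon alone. Promoter choice depends on DNA methylation and on looping to distant enhancers by CTCF, an insulator protein, together with cohesin, the ring complex that extrudes DNA loops. Many of the promoters hold a conserved element around the letters CGCT. The C-type genes (PCDHAC1, PCDHAC2, PCDHGC3, PCDHGC4 and PCDHGC5) stand at the downstream end of their clusters and are chosen less randomly than the others. Outside the brain, hypermethylation over these clusters has been described in several tumours, Wilms tumour of the kidney among them.

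To show what the promoters of a cluster share, stretches of 44 bases around the letters CGCT are printed 5′ to 3′ from the plus strand of hg38, with CGCT in capitals. They were chosen after the sequences had been searched and lie upstream of annotated exons. In the 5 beta genes shown, the first base of CGCT lay between positions -81 and -38 from the canonical start. Of these, PCDHB10, PCDHB13 and PCDHB14 had a promoter peak and PCDHB11 and PCDHB12 had none.
PCDHB10 (chr5:141192295-141192338): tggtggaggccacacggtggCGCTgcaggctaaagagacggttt
PCDHB13 (chr5:141213861-141213904): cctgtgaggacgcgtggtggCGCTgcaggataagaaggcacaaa
PCDHB14 (chr5:141223259-141223302): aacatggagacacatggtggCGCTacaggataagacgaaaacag
PCDHB11 (chr5:141199526-141199569): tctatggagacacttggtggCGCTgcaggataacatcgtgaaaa
PCDHB12 (chr5:141208639-141208682): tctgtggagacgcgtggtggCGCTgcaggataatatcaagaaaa

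The gamma promoters shown carried the letters in another setting. PCDHGA10, PCDHGB2 and PCDHGB6 had a promoter peak, and PCDHGA3, PCDHGA9 and PCDHGC4 had none.
PCDHGA10 (chr5:141412927-141412970): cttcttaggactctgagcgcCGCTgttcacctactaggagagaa
PCDHGB2 (chr5:141359917-141359960): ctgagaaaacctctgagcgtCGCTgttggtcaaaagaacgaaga
PCDHGB6 (chr5:141407920-141407963): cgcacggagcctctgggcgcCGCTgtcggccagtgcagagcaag
PCDHGA3 (chr5:141343763-141343806): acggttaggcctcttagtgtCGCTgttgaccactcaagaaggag
PCDHGA9 (chr5:141402710-141402753): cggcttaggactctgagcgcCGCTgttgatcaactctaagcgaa
PCDHGC4 (chr5:141484948-141484991): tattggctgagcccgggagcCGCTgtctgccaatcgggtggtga

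The alpha promoters shown had no peak in any of the 3 genes.
PCDHA2 (chr5:140794777-140794820): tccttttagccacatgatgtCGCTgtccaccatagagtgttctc
PCDHA8 (chr5:140841126-140841169): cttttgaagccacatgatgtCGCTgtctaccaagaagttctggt
PCDHA12 (chr5:140875240-140875283): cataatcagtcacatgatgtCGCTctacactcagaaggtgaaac

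To determine which promoters were accessible, a member was counted as having a promoter peak when a summit, the highest point of a peak, lay in the window that runs from 1 kb before to 100 bp after the transcription start site (TSS) of at least 1 of its transcripts. In total, 12 of the 53 members had a promoter peak (22.6%; exact 95% interval, 12.3 to 36.2), whereas 61.4% of all protein-coding genes had one. Of the other protein-coding genes on chromosome 5, 548 of 829 (66.1%) had one. The shares differed by cluster. None of the 15 alpha genes had a promoter peak, and a count of 0 among 15 genes allows a share of up to 21.8%. In the beta cluster 5 of 16 genes (31.2%; 11 to 58.7) and in the gamma cluster 7 of 22 genes (31.8%; 13.9 to 54.9) had one, so these shares were close and their intervals overlapped that of the alpha genes. These intervals cover counting only, and neighbouring genes are not independent. Keratin genes of the clusters on chromosomes 12 and 17, which encode the intermediate filaments of epithelia, had a promoter peak in 6 of 55 cases (10.9%; 4.11 to 22.2), and olfactory receptor genes on chromosome 11 in 2 of 178 (1.12%; 0.136 to 4.0).

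The list holds no peak with a pileup, the number of overlapping reads or fragments at the summit, under 9. That minimum corresponds to a fold enrichment of 5.15 over the background that the peak caller used for the whole genome. A member without a peak had no listed summit in its windows. Its promoter may have been below this minimum, and it was not shown to be closed.

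**Figure D1:**
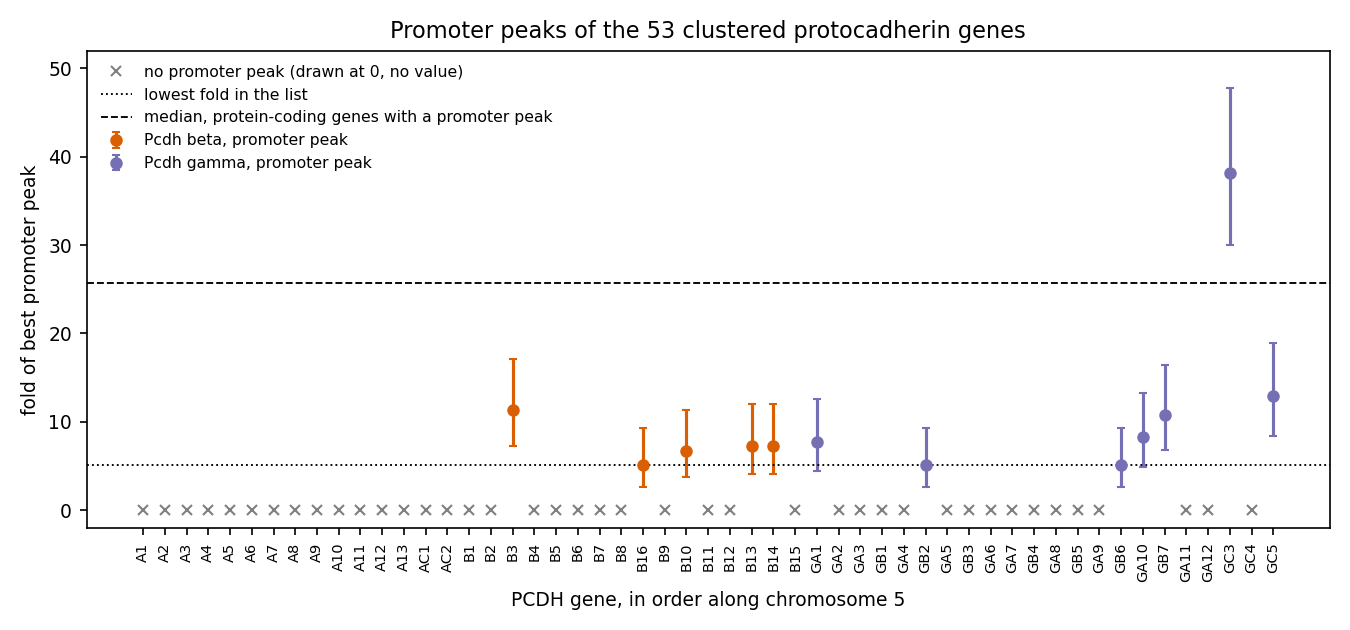
Fold enrichment of the best promoter peak (y axis, no unit) of each of the 53 members in their order along chromosome 5 (x axis), with exact Poisson 95% intervals of the pileup as bars. Crosses mark the 41 members without a promoter peak and stand for no value. PCDHGC3 at 38.1 is the only point above the dashed line, the median of 25.8 over protein-coding genes with a promoter peak, and the dotted line is the lowest fold in the list, 5.15.

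In the beta cluster the peaks were weak. PCDHB3 had the highest fold, 11.3 (95% counting interval, 7.21 to 17.1), at a pileup of 21, in a peak at chr5:141100256-141100739. PCDHB13 and PCDHB14 each had a fold of 7.21 (4.08 to 12.0) at a pileup of 13. PCDHB10 had a fold of 6.70 (3.71 to 11.3) at a pileup of 12, and PCDHB16 a fold of 5.15 (2.64 to 9.32) at the lowest listed pileup, 9. All 5 intervals overlapped, and the order of these genes was not resolved at this depth. The PCDHB14 peak also lay in the promoter of ENSG00000279983, a readthrough protein-coding gene without a symbol in the annotation, and the PCDHB16 peak in that of ENSG00000279068, a non-coding gene. Neither peak can be assigned to 1 gene alone. The remaining 11 beta genes, PCDHB1, PCDHB2, PCDHB4 to PCDHB9, PCDHB11, PCDHB12 and PCDHB15, had no promoter peak.

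Among the gamma genes, which fall into the A, B and C types by protein sequence, the peaks ranged from the minimum of the list to strong ones. PCDHGA1 and PCDHGA10 were the members of the A type with a peak (2 of 12), with folds of 7.73 (4.46 to 12.6) and 8.24 (4.84 to 13.3). PCDHGB2, PCDHGB6 and PCDHGB7 were those of the B type (3 of 7). PCDHGB2 and PCDHGB6 both stood at a fold of 5.15, and PCDHGB7 at 10.8 (6.81 to 16.4) with a pileup of 20. The intervals of these 5 genes overlapped as well. No promoter peak was present at PCDHGA2 to PCDHGA9, PCDHGA11, PCDHGA12, PCDHGB1 and PCDHGB3 to PCDHGB5.

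The C-type genes held the strongest promoter peaks of the family, although only 2 of these 5 genes had one. PCDHGC3 had a fold of 38.1 (30.0 to 47.8) at a pileup of 73, higher than 91.4% of all peaks and than the best promoter peak of 72.8% of the genes that had one. Its peak spanned 1354 bp at chr5:141475561-141476914, with the summit 7 bp downstream of a TSS of the gene. PCDHGC5 had a fold of 12.9 (8.44 to 18.9) at a pileup of 24, in a peak of 1195 bp at chr5:141488525-141489719. The interval of PCDHGC3 lay above those of the other 11 members, whereas that of PCDHGC5 overlapped those of the remaining 10. PCDHGC4, which starts between these 2 genes, had no promoter peak, and neither had PCDHAC1 and PCDHAC2, the C-type genes of the alpha cluster. To show the PCDHGC3 promoter, 150 bases that end just upstream of its annotated exons are given from the plus strand of hg38, with each CGCT in capitals.
PCDHGC3 upstream (chr5:141475797-141475946): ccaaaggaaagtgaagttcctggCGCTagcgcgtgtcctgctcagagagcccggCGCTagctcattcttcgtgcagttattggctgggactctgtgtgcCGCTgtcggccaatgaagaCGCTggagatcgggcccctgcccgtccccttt

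Taken over the 12 members with a promoter peak, the median best fold was 7.47 (range, 5.15 to 38.1), whereas it was 25.8 over all 12299 protein-coding genes with one. The fold of 11 of the 12 was below that median, and that of 8 was below the median of all peaks, 10.8. The pileup was under 15 in 7 of them. At 3 it was the lowest of the list, a value at which 9.19% of all peaks stood. Peaks were also narrow. Apart from PCDHGC3 and PCDHGC5 their widths were 239 to 484 bp, with a median of 353 bp, compared with 1035 bp for peaks at protein-coding promoters. A member with a pileup near the minimum could have been missed or listed by counting error alone.

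The summits were close to the starts. All 12 lay within 161 bp of a TSS of their own gene, 6 upstream of it and 6 at it or downstream. PCDHB16 had its summit farthest upstream, at -161 bp, and PCDHB3 farthest downstream, at 71 bp. At PCDHB14 the summit fell on the start itself. The sources used here do not say whether read ends were moved to where Tn5 cuts, and these offsets may be displaced by some bases.

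To place the promoter peaks in the locus, all summits between the outer ends of each cluster were counted. The alpha cluster (chr5:140786136-141012347, 226.2 kb) held 0 summits, which allows up to 16.3 per Mb by the exact Poisson interval. The beta cluster (chr5:141051374-141249365, 198.0 kb) held 6, or 30.3 per Mb (11.1 to 66.0), and the gamma cluster (chr5:141330514-141512977, 182.5 kb) held 8, or 43.8 per Mb (18.9 to 86.4). Over the 3 clusters the density was 23.1 per Mb (12.6 to 38.7), compared with 29.3 over chromosome 5 and 31.3 over the autosomes. It was 55.0 (27.5 to 98.4) in the 200 kb before PCDHA1 and 125.0 (80.9 to 184.5) in the 200 kb after the gamma cluster. Thus the interval over the clusters covered the value of the chromosome, and it lay below the interval of both flanks together, 90 per Mb (63.0 to 124.6). Taken singly, the interval of the 200 kb before PCDHA1 overlapped that of the clusters. Only that of the 200 kb after the gamma cluster lay above it.

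**Figure D2:**
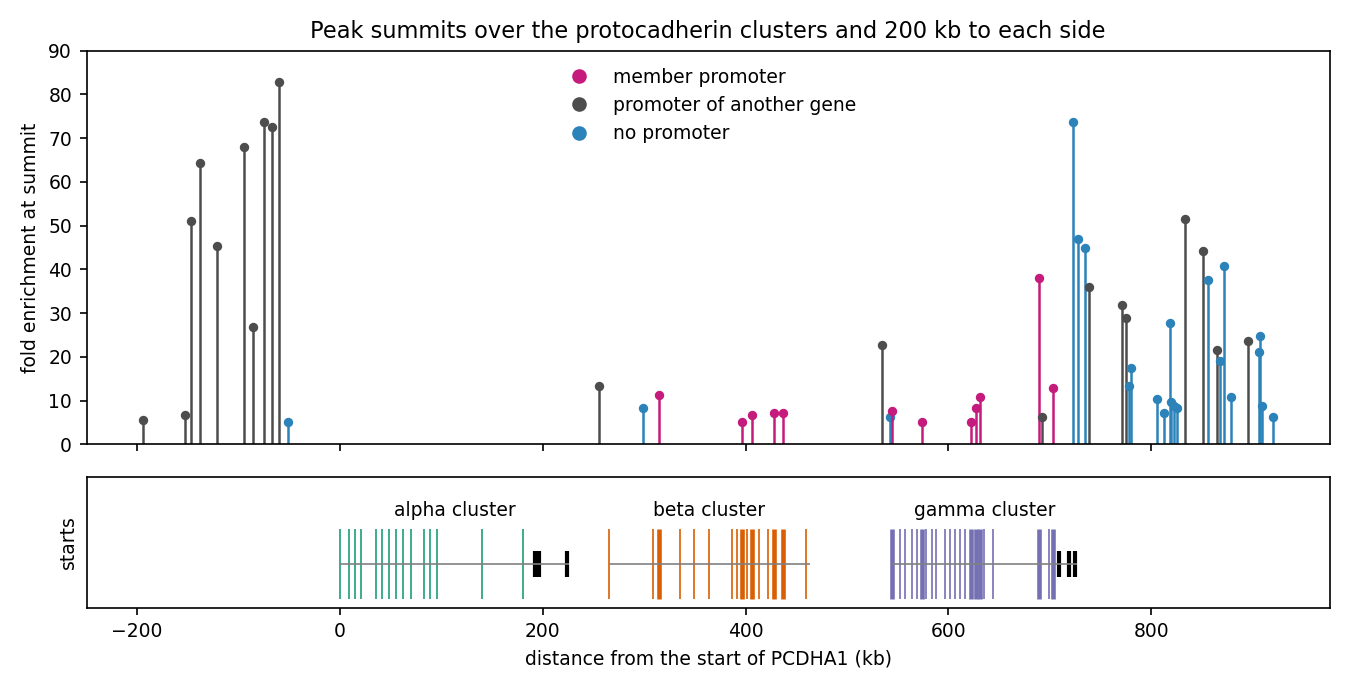
Upper panel, fold enrichment (y axis) of every peak summit over the clusters and 200 kb to each side, against the distance from the start of PCDHA1 in kb (x axis), coloured by whether the summit lies at a member promoter, at the promoter of another gene or at none. Lower panel, the starts of the 53 members, thick where a promoter peak was present, and the constant exons in black. The alpha cluster holds 0 summits, and the highest point inside the clusters, at 73.7, stands among the gamma constant exons.

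The absence of summits reached beyond the alpha cluster on both sides. No peak was listed from chr5:140734714 to chr5:141041042, a stretch of 306.3 kb in which all 15 alpha genes started, from PCDHA1 to PCDHAC2. Stretches of 100 kb or more without a peak and without unsequenced bases numbered 5251 on the autosomes. Of these, 783 were as long as this one, and 20 were as long and held as many canonical starts of protein-coding genes. The nearest summit to an alpha gene was between 51577 and 147565 bp away (median, 99689 bp). For the 11 beta genes without a promoter peak it was between 3710 and 34662 bp away (median, 9582 bp), and for the 15 such gamma genes between 3439 and 22759 bp (median, 10054 bp). In the beta cluster, PCDHB4, PCDHB5, PCDHB6, PCDHB7 and PCDHB8 started within 1 stretch of 81.4 kb without a peak. In the gamma cluster, 8 genes from PCDHGA5 to PCDHGA9 started within 1 of 47.6 kb, and PCDHGA11 and PCDHGA12 within 1 of 57.8 kb.

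Of the 14 summits inside the clusters, 11 lay at member promoters (78.6%; 49.2 to 95.3), whereas the member promoters made up 11.3% of the bases. Over the primary chromosomes, 14044 of 88615 peaks lay at protein-coding promoters, whose share of bases was not counted. The summit counted for PCDHGA1 lay 66 bp before its start and so just outside the gamma cluster. The other 3 summits were not at member promoters. One, at position 141084723 with a fold of 8.24, lay in PCDHB1-AS1, a non-coding gene antisense to the beta genes. Another, at position 141478776 with a fold of 6.18, lay at the promoter of RN7SL68P, a pseudogene of the signal recognition particle RNA.

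The remaining summit was the strongest in the clusters. The peak at chr5:141508157-141509797 had a fold of 73.7 (62.1 to 86.8) at a pileup of 142, higher than 99.1% of all peaks. Its summit, at position 141509234, was in the intron between the middle and the last constant exon of the gamma cluster, 3753 bp after the former and 1713 bp before the latter. These exons, of 89 and 2029 bp, are shared by the transcripts of all 22 gamma genes, so the peak belongs to the introns of every gamma gene at the same time. It was 1164 bp downstream of the start of a shorter PCDHGC3 transcript, at position 141508070. The bases around this summit are printed from the plus strand of hg38, because no promoter in the clusters reached its fold, and without capitals since the CTCF consensus, the element searched in peaks, was not found in this one.
Gamma constant intron summit (chr5:141509184-141509284): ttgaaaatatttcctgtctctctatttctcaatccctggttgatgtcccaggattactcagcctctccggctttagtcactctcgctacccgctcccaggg

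A further peak with a fold of 46.9, at chr5:141512982-141515417, began 5 bp past the end of the gamma cluster. In contrast, the constant exons of the alpha cluster (59, 89 and 2721 bp), which match those of the gamma cluster in the length of the shorter ones, held no peak within or between them.

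Between the alpha and beta clusters there was a peak at chr5:141041043-141041531, with a fold of 13.4 (8.85 to 19.5). Its summit was 28965 bp past the end of the alpha cluster, 10062 bp before PCDHB1 and at the promoter of the non-coding gene ENSG00000288892. The known enhancer of alpha promoters, HS5-1, lies downstream of the alpha constant exons. Its coordinates were in none of the sources used here, and whether this peak is that enhancer was not tested. It held the CTCF consensus without a mismatch on the minus strand, centred 64 bp from the summit. In the 200 kb after the gamma cluster, 4 peaks also held it without a mismatch. Among these 5 peaks its sequence is shown because it is the one that lies between the clusters. It is printed from the plus strand of hg38 with the match in capitals, and the match does not show that CTCF was bound.
Between alpha and beta (chr5:141041340-141041413): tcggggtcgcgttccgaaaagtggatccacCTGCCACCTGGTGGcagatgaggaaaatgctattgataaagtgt

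Genes next to the clusters were counted in the same way, and the shares of 61.4% over all protein-coding genes and 66.1% over the others of chromosome 5 apply to them. In the 200 kb before PCDHA1, 8 of 9 protein-coding genes had a promoter peak. The folds were 68.0 at HARS1 and HARS2, the histidyl-tRNA synthetase genes that share a promoter region, 64.4 at IK and NDUFA2, 51.01 at TMCO6, 45.3 at WDR55, 26.8 at ZMAT2 and 6.70 at CD14, the lipopolysaccharide co-receptor of myeloid cells. DND1 had none. Between the beta and gamma clusters, TAF7, a subunit of the general transcription factor TFIID, had a fold of 22.7, and SLC25A2, a mitochondrial ornithine carrier, had no promoter peak. After the gamma cluster 4 of 5 genes had one, with 51.5 at the formin gene DIAPH1, 44.3 at HDAC3 and RELL2 and 21.6 at FCHSD1, and ARAP3 had none. With the exception of CD14, these folds were higher than those of all members apart from PCDHGC3.

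To examine what the member promoters have in common, sequence was compared in windows of 1101 bases, from 1 kb before to 100 bp after the canonical start. The median share of G and C was 36.1% (range, 28.8 to 49.5) in the members and 54.6% in all protein-coding genes. In 49 members it was below the lower quartile of all genes. The ratio of observed to expected CpG dinucleotides, which is high in CpG islands, had a median of 0.412 in the members and 0.632 in all genes. It reached 0.6 in 5 of 53 members, and in 54.9% of all genes. The members with and without a promoter peak were close in the share of G and C, with medians of 37.0% and 36.1%, and in the CpG ratio, with medians of 0.370 and 0.416. Of all genes whose window reached a CpG ratio of 0.6, 81.1% had a promoter peak, and of the 5 members that did, 1 had one.

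The variable exons differed from the windows before them. In the first exons of the canonical transcripts the median share of G and C was 53.8% and the median CpG ratio 0.701, and 52 of the 53 exons were richer in G and C than the window of their own gene. The ratio reached 0.6 in 42 of them. The alpha exons were the richest in CpG, with a median ratio of 0.890, compared with 0.65 in beta and 0.694 in gamma exons. These were unlike parts, since each beta exon ran to the end of its gene. The median exon length was 3846.5 bp in beta, 2532 bp in alpha and 2598.5 bp in gamma genes, and coding sequence was not compared by itself. The members with a promoter peak had a median ratio of 0.671, and those without one 0.705.

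The letters CGCT were then counted on the strand of the gene in the 150 bases before the canonical start. They occurred in 48 of 53 members (90.6%), and in 46.1% of all protein-coding genes. On both strands they occurred in 92.5% of the members and in 67.2% of all genes. The element did not separate the members by accessibility, since 11 of 12 with a promoter peak and 37 of 41 without one contained it. PCDHGC5 was the member with a peak that did not.

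**Figure D3:**
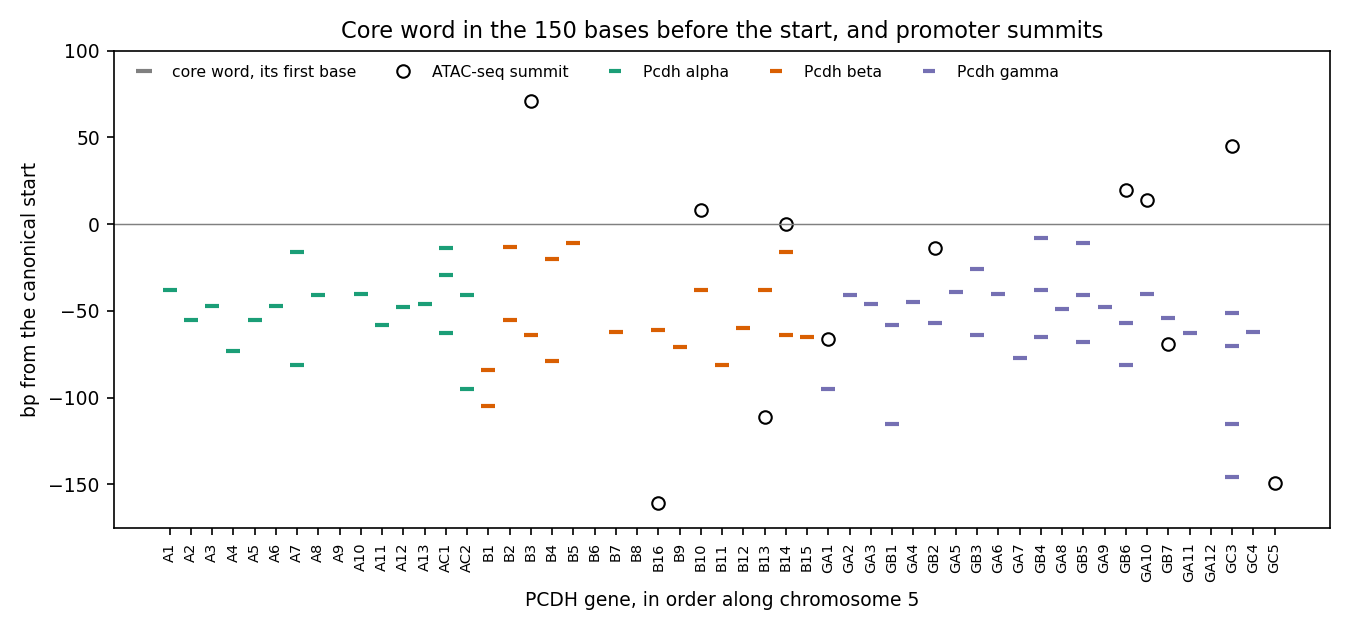
Position in bp from the canonical start (y axis, negative upstream) of the core word, the letters counted before each start, as coloured bars, and of the promoter summit as open circles, for the 53 members in their order along chromosome 5 (x axis). The core word is present in 48 members, alpha genes included, whereas circles are present in 12 members and in none of the alpha genes.

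Longer words around CGCT differed in spelling between clusters. For each cluster, the 10-letter word that includes CGCT and occurs in the most members was taken from the same 150 bases, so these counts are a description of how it was chosen. TGATGTCGCT was present in 9 of 15 alpha genes and in no beta or gamma gene, and on both strands in 0.0449% of all protein-coding genes, which were these 9 genes alone. GGTGGCGCTG was present in 12 of 16 beta genes, 4 of 5 with and 8 of 11 without a promoter peak, and on both strands in 0.230% of all genes. GCGCCGCTGT was present in 9 of 22 gamma genes, 3 of 7 with and 6 of 15 without a peak, and on both strands in 0.135% of all genes.

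Other patterns, which could overlap CGCT, were less frequent or less specific. The CTCF consensus of 14 letters with at most 2 mismatches, on both strands, was found in the 1101-base windows of 9 of 53 members (17%), 2 of 12 with and 7 of 41 without a promoter peak, compared with 41.4% of all genes. The median share of G and C in these windows was 36.1% in the members and 54.6% in all genes. The counts were not adjusted for this difference, and whether it accounts for the lower share of matches was not tested. The consensus was not found within 50 bp of any of the 12 member summits, and 1 of the 12 peaks, that of PCDHB10, contained a match. The match and CGCT overlapped at PCDHA10 (starting at -51 and -40), PCDHB9 (-82 and -71) and PCDHB11 (-92 and -81). At the other members with a match, the best match did not overlap CGCT. A window without a match was not shown to lack a CTCF site. The 8-letter word in the most member windows was AAATAAAA, in 29 of 53 (54.7%) and in 19.2% of all genes. It occurred in 9 of 12 members with and 20 of 41 without a promoter peak.

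Because similar genes can lose reads that align to more than 1 place, the uniqueness of the locus was measured by the share of 50-base words that occur once in the primary chromosomes. It was 93.9% in the alpha, 89.8% in the beta and 93.9% in the gamma cluster. Every word was unique in the promoter windows of 45 of the 53 members, including 35 of the 41 without a promoter peak, and the lowest share in a window was 86.5%. The alpha cluster without a summit and the gamma cluster with 8 had about the same share by this measure. It counts exact words and not reads, and whether reads were lost was not tested. No copy of the locus was found among the 13 alternative sequences of chromosome 5 in hg38.

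The other genes of the family and its regulators were counted by the same rule, to be read against the share of 61.4% over all protein-coding genes. Of 13 non-clustered protocadherin genes and relatives, which have promoters outside the clusters, 8 had a promoter peak (61.5%), the background share. The folds were 44.3 at PCDH9, 29.4 at PCDH1, 21.1 at PCDH10, 16.5 at PCDH7, 11.9 at CDHR1, 6.70 at PCDH15 and 6.18 at both PCDH12 and PCDH17. PCDH8, PCDH11X, PCDH18, PCDH19 and PCDH20 had none. All 11 genes of CTCF and cohesin had one, with folds from 27.8 to 66.0 and 46.4 at CTCF itself. All 9 silencing factors had one, with folds from 12.4 to 30.9. Among these were SMCHD1 (24.7), which represses the clusters in mice, the histone H3 lysine methyltransferase SETDB1 (22.2) and the DNA methyltransferase DNMT3B (16). Of 16 genes for proteins that act with or process clustered protocadherins, such as subunits of the WAVE complex and of γ-secretase, 14 had one, and CYFIP1 and RET had none.

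The labelled cell type was checked against its markers. Of 7 renal tubule lineage genes, 5 had a promoter peak (71.4%), a share near that of all protein-coding genes, so the count does not identify the cell type. These had folds of 42.8 at EPCAM, 31.9 at PAX8, 29.4 at CDH16, 22.7 at PAX2 and 8.24 at KRT18, and LHX1 and CDH6 had no promoter peak. Of 8 markers of other cells, the neuronal genes SNAP25 (19.6) and SYT1 (14.9) had one, and RBFOX3, STMN2, PTPRC, CD3E, PECAM1 and CDH5 had none. An accessible promoter is not a transcript, and the expression of the members was not measured here.

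The 12 members with a promoter peak were the same under every other choice of window and start. A promoter of 1 or 2.5 kb to both sides, the canonical transcript alone, the start of the gene record alone and overlap of the peak interval each gave these 12 genes, with none lost and none gained. The share of all protein-coding genes meanwhile ranged from 42.3% to 70.3%. The minimum score, a measure of peak significance, was what changed the members. With a score above 100 there were 6, namely PCDHB3, PCDHGA1, PCDHGA10, PCDHGB7, PCDHGC3 and PCDHGC5 (11.3%), compared with 57.5% of all genes. With a score above 200 only PCDHGC3 and PCDHGC5 were left (3.77%), compared with 52%.

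**Figure D4:**
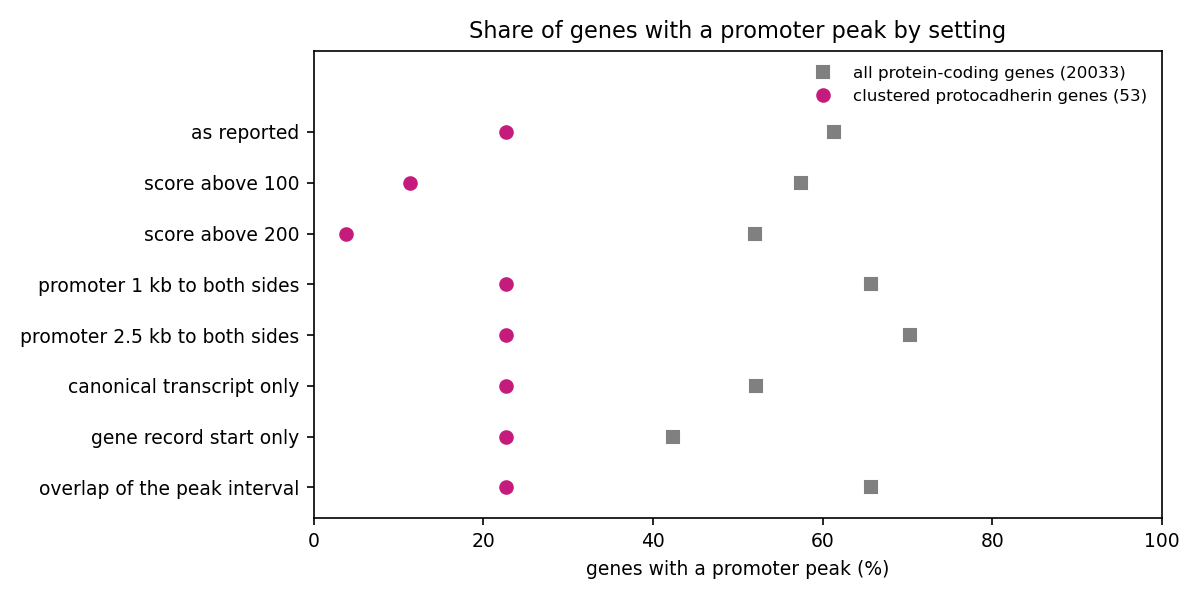
Share of genes with a promoter peak in percent (x axis) under each setting (y axis), as circles for the 53 members and squares for all 20033 protein-coding genes. The circles stay at 22.6% when the window or the start is changed, and fall to 11.3% and 3.77% with a score above 100 and 200.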

How the data were processed

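ATAC-seq had been performed on 1 library of 786-O cells with an empty vector, the group given by the labels. According to the study's methods and the submitters' processing notes, the authors ran fastp for trimming and Bowtie2 2.3.4.3 for alignment to hg38, removed mitochondrial, duplicate and low-quality alignments and called peaks with MACS2 2.2.6 on the library by itself. A Tn5 shift is not stated in the sources used here. The deposited fold is the ratio of the summit pileup to a genome-wide background, with 1 added to both, the deposited significance columns hold a −log10 p-value and a −log10 q-value per peak, and the deposited score follows from the −log10 q-value. The names of the peaks carry a wild-type tag, but the label was used.

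Of 88676 peaks, 88615 lay on the 24 primary chromosomes and were analysed, with summits as positions and GENCODE release 44 as annotation. The number of reads is unknown. The background pileup of 0.941, recovered from the folds, is the only measure of depth, and pileups from 9 to 300 give the depth of each peak. Since folds refer to 1 genome-wide background, copy number and accessibility cannot be told apart in them. Shares carry Clopper-Pearson and densities and folds Poisson 95% intervals, for counting error only. Alternative sequences were searched for copies with minimap2 2.31 (minimum length 10 kb, maximum divergence 5%). The software was Python 3.11.15 with scipy 1.17.1, pandas 2.3.3, numpy 2.4.6 and matplotlib 3.10.9, and the functions were tested on simulated data.

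The family and the lists were chosen with earlier results of these data known. Another gene of the marker list is not reported here, and the counts leave it out. Named were every member with a promoter peak, the C-type members, members without a peak with distances as a range, every cluster summit outside member promoters, the genes of both flanks and the listed genes without a promoter peak. The CGCT counts and exon composition were added after the data were examined. Alternatives changed the score minimum, promoter window, starts, peak assignment, flank length and sequence copies.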

Additional observations from a re-analysis of the deposited data

How the results depend on the processing

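No paired analysis was possible because 1 library has no partner, and no replicate could be left out. The minimum score moved most values. With a score above 100, the share of members with a promoter peak was 11.3% and that of beta genes 6.25%, and the clusters held 7 summits, or 11.5 per Mb. With a score above 200, these were 3.77% and 0%, with 9.09% of gamma genes, 3 summits, 4.95 per Mb in the clusters, 62.5 per Mb in the flanks and a median fold of 25.5 over the 2 members left. Fewer peaks remain by construction. The fold of PCDHGC3 became 73.7 both with a window of 2.5 kb around each start and by overlap of the interval, because the peak in the gamma constant intron then counted at the shorter PCDHGC3 transcript. The other shares and densities of the members, clusters and flanks stayed within their counting intervals, including the density in flanks of 500 kb (80.0 per Mb). The median fold, which has no such interval, was 11.1 with a score above 100. The share of all protein-coding genes moved from 61.4% to between 42.3% and 70.3%. No member promoter had a sequence copy, so that alternative removed no gene and tests nothing. Depth limits the weak members most, since 7 of 12 had a pileup under 15.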
